A study of Homo sapiens with 6 samples.

Results

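The genes described here are recurrently mutated in myelodysplastic syndromes (MDS) and act on chromatin, on sister chromatid cohesion or on hematopoietic transcription. They were followed in RNA-seq libraries of U2AF1 (S34F) mutant and wild-type cells. The 10 genes, DNMT3A, TET2, IDH1, IDH2, EZH2, ASXL1, BCOR, STAG2, RUNX1 and PHF6, were taken by symbol from the 31142 genes in the deposited table. Each symbol was listed under 1 identifier. The values are FPKM, fragments scaled to transcript length and to the mapped fragments of the library, so that levels of different genes can be compared per unit of length. The 10 genes fell into 4 abundant ones (IDH2, BCOR, EZH2 and IDH1), 4 at a low level (ASXL1, PHF6, STAG2 and RUNX1) and 2 below 1 FPKM on average (DNMT3A and TET2). Of the 8 tested, 0 had an unadjusted p under 0.05 between the groups, against 2.39% of all genes tested. In 3 of the 10 both replicate 3 libraries lay outside the range of the other 4, against 37.9% of the 15980 genes with a mean of at least 0.2 FPKM.

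The 6 libraries came from cells labelled SKM-1, an acute myeloid leukemia line derived from MDS, that carried a lentivirus with a FLAG-tagged U2AF1 open reading frame behind a ubiquitin promoter and were collected after 96 h. By genotype 3 libraries were S34F mutant U2AF1 (here S34F) and 3 wild type, with U2AF1-WT in their titles (here WT). U2AF1 is the small subunit of the factor that recognizes the AG at 3′ splice sites. The titles of the WT samples also carry a prefix that the study uses for untransfected negative controls, and its methods speak of a vehicle control, so that the WT libraries are wild-type U2AF1 cells rests on their titles. The study calls the RNA samples paired and independent, and the treatment was in triplicate, but nothing says what a pair shares or whether cultures were separate. Thus p-values measure only the spread between these samples.

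Before any comparison, the libraries were checked against their labels. U2AF1 (ENSG00000160201) had 9.24, 9.48 and 9.18 FPKM in S34F replicates 1, 2 and 3 and 8.67, 8.70 and 7.65 FPKM in WT replicates 1, 2 and 3, and gene-level values do not separate the mutant allele from the wild-type one. Of 12 listed erythroid genes 0 averaged below 1 FPKM, and they had a median of 551 FPKM, while 7 of 12 listed monocytic and granulocytic genes had a mean under 1 FPKM. The listed erythroid genes summed to 12198 to 13963 FPKM in S34F and 11784 to 12911 FPKM in WT. HBE1, of that list, had 5058 to 5834 FPKM. Thus every library had a strong erythroid profile. Whether this profile belongs to the line named in the labels was not tested, and the name SKM-1 rests on the labels. The monocytic genes summed to 57.2 to 83.3 FPKM in S34F and 79.6 to 98.7 FPKM in WT, with the defining genes MPO and FCN1 at or close to 0 in every library. Other genes of that list were well detected, CD68 at 32.9 to 64.6 FPKM, LYZ at 8.52 to 23.2 FPKM and SPI1 at 7.64 to 12.4 FPKM. Of the 5 monocytic genes tested, 5 were lower in S34F, and ITGAM (log2 difference -0.52) and CD33 (-0.33) passed an unadjusted p under 0.05 from limma. LYZ, lower on average, was higher in S34F in replicate 3 (23.2 against 17.6 FPKM). Directions differed among the 7 with a mean under 1 FPKM, which were not tested. By group mean CD14 (0.490 against 0.290 FPKM) and S100A9 (0.240 against 0.129 FPKM) were higher in S34F. CSF1R (0.0191 against 0.0274 FPKM) and FCGR1A (0.0358 against 0.120 FPKM) were lower. The part of these markers in the values below was not tested. The third replicates stood apart in both groups: 43% of the 10942 genes tested had both replicate 3 libraries outside the range of the other 4 libraries. Among 16 listed proliferation genes, 13 had both replicate 3 libraries below the other 4, against 25.1% of the 10942 genes tested. MKI67, of that list, had 5.30, 4.99 and 2.93 FPKM in S34F and 2.58, 2.25 and 3.11 FPKM in WT (log2 difference 0.54, unadjusted p = 0.0327 from limma). The approximate depth was 20.5 to 26.1 M fragments per library.

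DNA methylation is laid down by DNA methyltransferases and removed stepwise by the TET dioxygenases, which need 2-oxoglutarate made by isocitrate dehydrogenases. Polycomb complexes silence genes through methylation and ubiquitination of histones, and EZH2, ASXL1 and BCOR each act in or beside a different one of them. Cohesin rings hold sister chromatids together and extrude chromatin loops, and RUNX1 is a master transcription factor of blood formation. In MDS most of these genes lose function by mutation, whereas IDH1 and IDH2 gain an activity that makes 2-hydroxyglutarate.

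**Figure D1:**
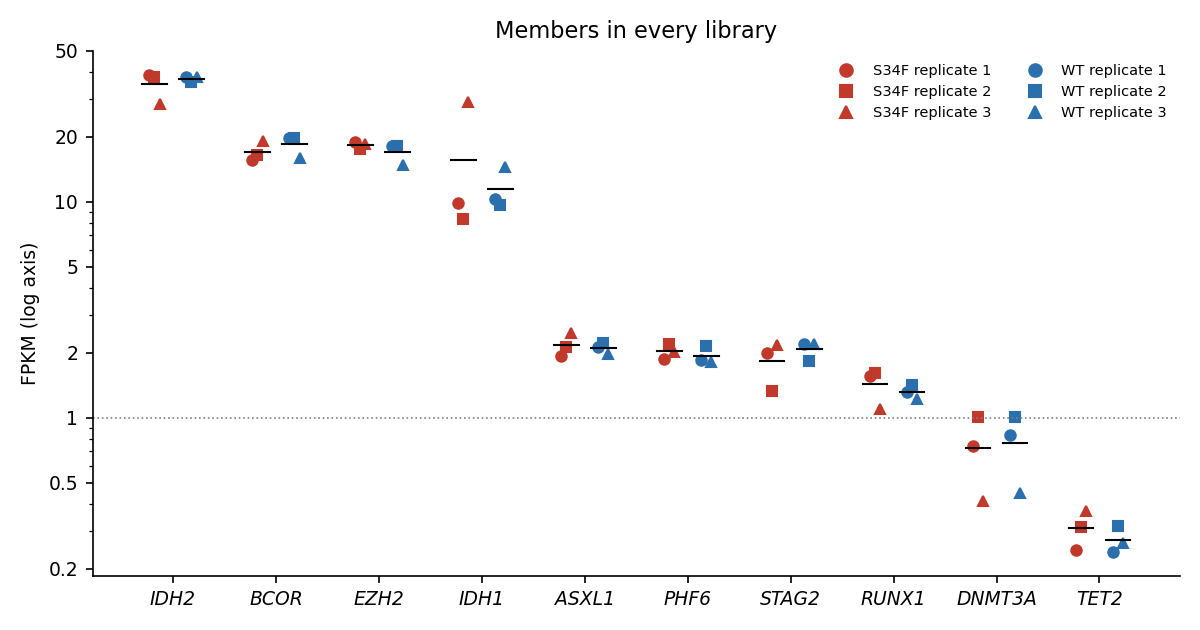
FPKM of the 10 genes in each of the 6 libraries on a log axis, with S34F libraries in red, WT libraries in blue, replicates 1, 2 and 3 as circles, squares and triangles, black bars at the group means and a dotted line at 1 FPKM, the level below which genes were not tested. The red and blue points overlap for every gene, and S34F replicate 3 of IDH1, at 28.9 FPKM, is the point farthest from its group.

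Per unit of length, the order of the mean levels was IDH2, BCOR, EZH2, IDH1, ASXL1, PHF6, STAG2, RUNX1, DNMT3A and TET2. IDH2, at a mean of 36.1 FPKM, was 2.03 times BCOR, and the ranges of these neighbours did not overlap. BCOR at 17.8 FPKM and EZH2 at 17.7 FPKM could not be ordered, since BCOR was the higher in only 4 of 6 libraries. The range of EZH2 also overlapped that of IDH1, which had a mean of 13.6 FPKM. Below IDH1 came the widest step, of 6.36 times, down to ASXL1 at 2.14 FPKM. ASXL1, PHF6 at 1.99 FPKM and STAG2 at 1.96 FPKM overlapped in turn, and STAG2 overlapped RUNX1 at 1.38 FPKM. RUNX1 stood above DNMT3A, at 0.743 FPKM, in 6 of 6 libraries, and DNMT3A above TET2, at 0.291 FPKM, in 6 of 6. Of all 31142 genes, 96.3% had a mean below that of IDH2 and 52.5% a mean below that of TET2. If all fragments came from the principal transcript, TET2 rested on about 51 to 94 fragments per library and DNMT3A on about 97 to 249, so that counting error alone gave a coefficient of variation of up to 14% and 10.1%. BCOR rested on about 2055 to 3298 fragments, and its counting error was at most 2.21%.

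The question for the groups was whether S34F mutant U2AF1 changed the transcript level of these genes. Of the 10 genes, 8 averaged 1 FPKM or more and were tested by limma on log2(FPKM + 1). At an unadjusted p under 0.05, 0 of these 8 were called, while 2.39% of all genes tested were. The study's limits are a fold change above 1.5, here taken in FPKM + 1, and an unadjusted p under 0.05. With these limits 0 of 8 were called against 0.585% of all genes, and at an adjusted p under 0.05 the share was 0% of all genes. The unadjusted p of the 8 genes ran from 0.391 to 0.801 and every adjusted p was 1.00 (limma with Benjamini-Hochberg adjustment over all genes tested). The groups overlapped for all 10 genes, whereas they did not for 7.72% of the 15980 genes with a mean of at least 0.2 FPKM, a level that all 10 reach. On the log2 scale 5 of the 8 were higher in S34F and 3 lower, with a median difference of 0.04 beside 0.01 over all genes. For 7 of the 8, all but IDH1, the 95% interval lay inside 0.585 on this scale in either direction, which held for 73.7% of all genes tested. That limit is a 1.5-fold change in FPKM + 1. Fold changes on this scale understate those in FPKM at low levels, most for genes near or below 1 FPKM. The interval of STAG2, from -0.48 to 0.22, thus need not lie inside a 1.5-fold change in FPKM. In bulk RNA, fewer cells of a type and less RNA per cell cannot be told apart.

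**Figure D2:**
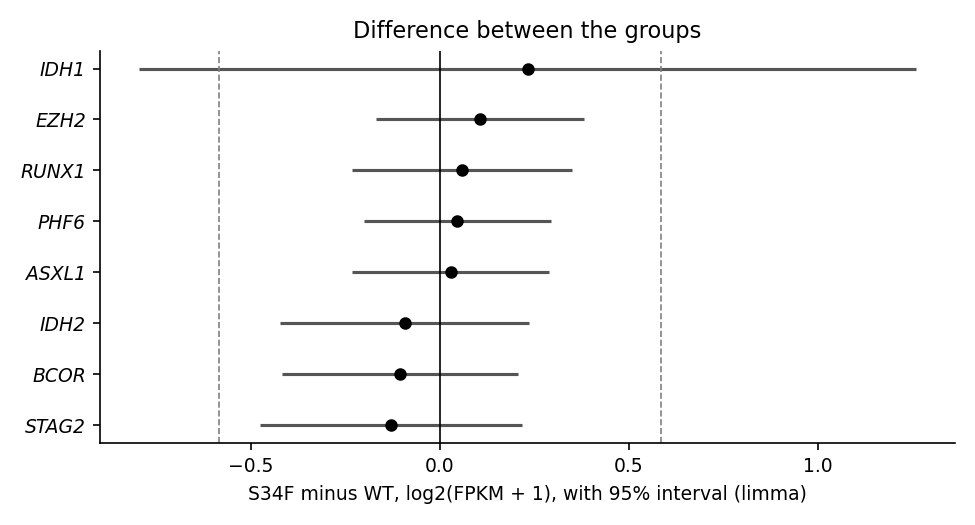
Difference between S34F and WT in log2(FPKM + 1) for the 8 genes tested. Points are the limma estimate, bars its 95% interval and dashed lines a 1.5-fold change in FPKM + 1. All 8 intervals include 0, and the interval of IDH1, from -0.79 to 1.26, is the only one of the 8 that crosses a dashed line.

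DNMT3A encodes a de novo DNA methyltransferase and lies on chromosome 2 of GRCh38 from 25227855 to 25342590 on the minus strand (ENSG00000119772). It had 0.745, 1.01 and 0.414 FPKM in S34F replicates 1, 2 and 3 and 0.834, 1.00 and 0.450 FPKM in WT replicates 1, 2 and 3. The groups overlapped almost fully, and in both of them replicate 3 was the lowest, at 0.472 times the mean of replicates 1 and 2 in S34F and 0.489 times in WT. Its group means were 0.723 ± 0.298 FPKM for S34F and 0.763 ± 0.284 FPKM for WT (SD, n = 3 each). In a fit without the filter on low values, in which 2.9% of all genes had an unadjusted p under 0.05, the difference on the log2(FPKM + 1) scale was -0.03 (95% interval -0.50 to 0.43, unadjusted p = 0.86 from limma). Without S34F replicate 3 it was 0.1003, and without WT replicate 3 it was -0.17. The exact permutation p over the 6 libraries was 0.8, two-sided, in a design where the smallest possible is 0.1.

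TET2, on chromosome 4 from 105145875 to 105279816 on the plus strand (ENSG00000168769), encodes a dioxygenase that oxidizes 5-methylcytosine. Its values were 0.245, 0.313 and 0.372 FPKM in S34F and 0.240, 0.317 and 0.263 FPKM in WT. S34F replicate 3 was the highest library, and the other 5 were interleaved. Group means of 0.310 ± 0.0636 FPKM for S34F and 0.273 ± 0.0395 FPKM for WT (SD, n = 3 each) gave a log2 difference of 0.04 (95% interval -0.11 to 0.19, unadjusted p = 0.537 from limma without the filter).

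IDH1 encodes the NADP-dependent isocitrate dehydrogenase of the cytosol and peroxisomes and lies on chromosome 2 from 208236227 to 208266074 on the minus strand (ENSG00000138413). It was the gene of the 10 that varied most. S34F replicates 1, 2 and 3 had 9.90, 8.33 and 28.9 FPKM, and WT replicates 1, 2 and 3 had 10.4, 9.63 and 14.5 FPKM. The third replicate was the highest in each group, at 3.17 times the mean of the other replicates in S34F and 1.45 times in WT, while the 4 remaining libraries lay between 8.33 and 10.4 FPKM. The spread within groups on the log2 scale, an SD of 0.68, was wider than that of 97.8% of all genes tested. With means of 15.7 ± 11.5 FPKM for S34F and 11.5 ± 2.63 FPKM for WT (SD, n = 3 each), the log2 difference was 0.23 (standard error 0.43, unadjusted p = 0.608 from limma). It was -0.29 without S34F replicate 3, so that 1 library set its direction. Within replicate numbers, S34F minus WT was -0.06 and -0.19 in replicates 1 and 2 and 0.95 in replicate 3. About 1748 fragments lay behind the value of S34F replicate 3, against about 471 to 876 in the other libraries, if all came from the principal transcript.

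IDH2, the mitochondrial counterpart of IDH1, lies on chromosome 15 from 90083045 to 90102504 on the minus strand (ENSG00000182054). Its values were 38.9, 38.0 and 28.5 FPKM in S34F and 37.8, 36.0 and 37.7 FPKM in WT. S34F replicate 3 was the lowest library, and the other 5 differed little. The log2 difference was -0.09 (standard error 0.14, 95% interval -0.42 to 0.24, unadjusted p = 0.526 from limma), and it was 0.05 without S34F replicate 3. IDH2 exceeded IDH1 by 2.60 to 4.56 times in 5 libraries, and in S34F replicate 3 the ratio was 0.985. Thus the library with the highest IDH1 was also the one with the lowest IDH2.

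EZH2 encodes the histone H3 methyltransferase of Polycomb repressive complex 2 (PRC2) and lies on chromosome 7 from 148807383 to 148884321 on the minus strand (ENSG00000106462). It had 19.0, 17.5 and 18.6 FPKM in S34F replicates 1, 2 and 3 and 18.2, 18.1 and 14.8 FPKM in WT replicates 1, 2 and 3. WT replicate 3 stood below the other 5 libraries. With means of 18.4 ± 0.761 FPKM for S34F and 17.0 ± 1.93 FPKM for WT (SD, n = 3 each), EZH2 had the smallest p of the 8 genes. Its log2 difference was 0.11 (standard error 0.12, 95% interval -0.17 to 0.38, unadjusted p = 0.391 from limma). Without WT replicate 3 it was 0.01. The 5 genes whose profile over the 6 libraries was closest to that of EZH2 were STAM, GMCL1, SLC35D1, SRSF6 and MTPN. Centred on its own mean, the profile of STAM differed from that of EZH2 by an average of 0.0086 on the log2 scale per library, and that of MTPN by 0.015. STAM had 6.12, 5.74 and 5.96 FPKM in S34F and 5.87, 5.80 and 4.65 FPKM in WT, with the same low WT replicate 3.

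ASXL1 encodes a cofactor of BAP1, the deubiquitinase of histone H2A, and lies on chromosome 20 from 32358330 to 32439319 on the plus strand (ENSG00000171456). Its values were 1.93, 2.12 and 2.47 FPKM in S34F and 2.13, 2.22 and 1.97 FPKM in WT. The lowest and the highest library were both S34F. The log2 difference was 0.03 (95% interval -0.23 to 0.29, unadjusted p = 0.801 from limma). Its sign turned without S34F replicate 3, to -0.0376, and without WT replicate 3, to -0.0035.

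BCOR, a corepressor and a core subunit of the Polycomb complex PRC1.1, lies on chromosome X from 40049815 to 40177329 on the minus strand (ENSG00000183337). It had 15.7, 16.4 and 19.2 FPKM in S34F replicates 1, 2 and 3 and 19.7, 19.8 and 16.0 FPKM in WT replicates 1, 2 and 3. Replicates 1 and 2 were lower in S34F and replicate 3 was higher, by -0.31, -0.25 and 0.25 on the log2 scale. Over all libraries the log2 difference was -0.10 (standard error 0.13, 95% interval -0.42 to 0.21, unadjusted p = 0.455 from limma). With both replicate 3 libraries left out, it was -0.28 (unadjusted p = 0.00483, adjusted p = 0.152 from limma). In that fit 16.9% of all genes tested had an unadjusted p under 0.05 and 0.0731% an adjusted one.

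STAG2, on chromosome X from 123960212 to 124422664 on the plus strand (ENSG00000101972), encodes 1 of the paralogous STAG subunits that bind the cohesin ring. It had 1.997, 1.33 and 2.18 FPKM in S34F and 2.20, 1.84 and 2.20 FPKM in WT. S34F replicate 2 was the lowest library, and WT replicate 2 was the lowest of its group. STAG2 was lower in S34F in 3 of 3 replicate numbers, by -0.10, -0.28 and -0.01 on the log2 scale. The difference was -0.13 (standard error 0.15, 95% interval -0.48 to 0.22, unadjusted p = 0.405 from limma), and it was 0.01 without S34F replicate 2.

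RUNX1, the DNA-binding subunit of core binding factor, lies on chromosome 21 from 34787801 to 36004667 on the minus strand (ENSG00000159216). Its values were 1.57, 1.61 and 1.10 FPKM in S34F and 1.31, 1.43 and 1.23 FPKM in WT. Replicate 3 was the lowest library of each group, and in replicates 1 and 2 S34F was the higher. The log2 difference was 0.06 (standard error 0.12, 95% interval -0.23 to 0.35, unadjusted p = 0.644 from limma). It was 0.0026 without S34F replicate 2 and 0.16 without S34F replicate 3.

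PHF6 encodes a nuclear protein with PHD-like zinc fingers and lies on chromosome X from 134373253 to 134428791 on the plus strand (ENSG00000156531), so that 3 of the 10 genes are X-linked. It had 1.88, 2.20 and 2.02 FPKM in S34F and 1.85, 2.15 and 1.81 FPKM in WT. PHF6 was the steadiest of the 10 in FPKM, its highest library being 1.21 times its lowest. The value was higher in S34F in 3 of 3 replicate numbers, by 0.01, 0.02 and 0.11 on the log2 scale, and replicate 2 was the highest of each group. The log2 difference was 0.05 (standard error 0.10, 95% interval -0.20 to 0.30, unadjusted p = 0.668 from limma), and it ran from 0.0081 without S34F replicate 2 to 0.098 without WT replicate 2.

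**Figure D3:**
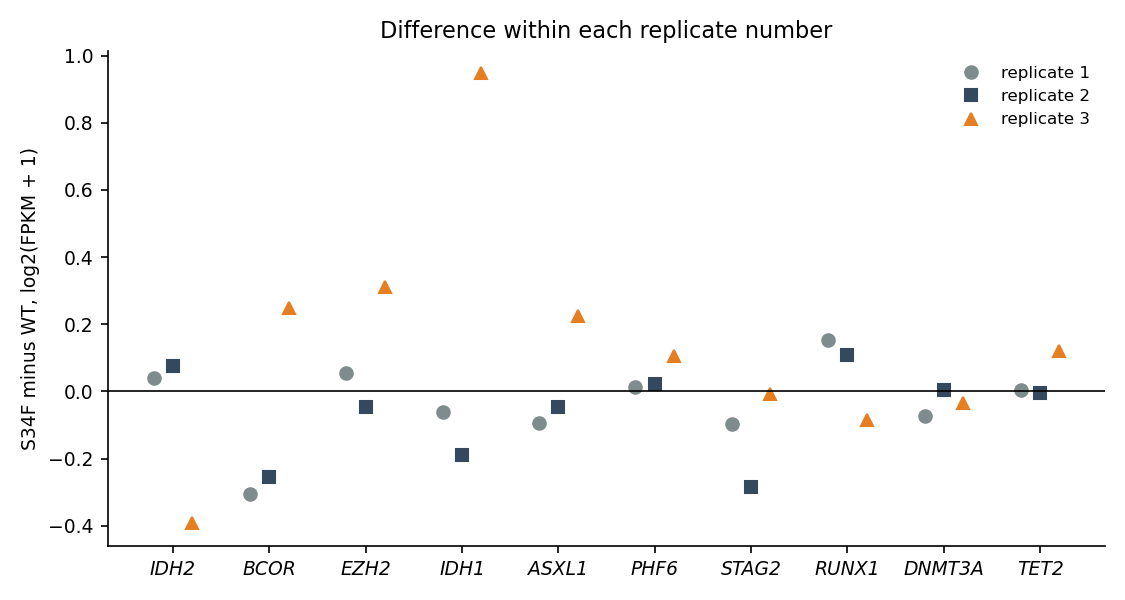
Difference between S34F and WT in log2(FPKM + 1) within each replicate number for the 10 genes, in the order of their mean levels, with replicates 1, 2 and 3 as grey circles, dark squares and orange triangles. Replicate 3 lies on the other side of 0 from both other replicates for IDH2, BCOR, IDH1, ASXL1 and RUNX1.

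Replicate 3 went against both other replicates in 5 of the 10 genes, and it did so in 37.4% of the genes with a mean of at least 0.2 FPKM. In replicates 1 and 2 alone, the groups did not overlap for 4 of the 10, of which IDH2 and RUNX1 were higher in S34F and BCOR and ASXL1 lower, against 48.6% of those genes. Both replicate 3 libraries lay outside the range of the other 4 for 3 of the 10, above it for IDH1 and below it for DNMT3A and RUNX1, against 37.9%. Each of these counts rests on 10 genes.

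In the gene ontology terms deposited with the table, chromatin organization was given for 5 of the 10 (ASXL1, BCOR, DNMT3A, EZH2 and TET2), and for 3.09% of the tested genes that carry any term. The term nucleus was given for 8 of the 10, all but IDH1 and IDH2, and for 45.2% of those genes. The 10 were chosen for their roles, so these shares follow from the choice and only describe the list. DNMT3A and TET2 are not among the tested genes set beside them.

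The paralogs of the 10 genes showed which family member carried most of the transcript. DNMT3A was the scarcest of the DNA methyltransferases. DNMT3B, the other de novo enzyme, had 9.16 to 15.2 FPKM and DNMT1, the maintenance enzyme, 11.3 to 17.3 FPKM, and DNMT3B exceeded DNMT3A by 13.1 to 29.6 times. TET2 was likewise the lowest of its family, with TET3 at 2.81 to 3.60 FPKM and TET1 at 0.537 to 0.884 FPKM, and TET3 exceeded TET2 by 9.69 to 13.8 times. EZH2 exceeded EZH1, its counterpart of low activity, by 3.54 to 4.94 times, and BCOR exceeded BCORL1 by 6.08 to 8.60 times. STAG2 exceeded STAG1 by 1.20 to 2.40 times. RUNX1 made up 90.0% to 96.6% of the summed RUNX level, with RUNX3 listed at 0 in 5 of 6 libraries. ASXL1 and ASXL2 were close to each other, at 44.2% to 55.4% of the summed ASXL level for ASXL1. In the DNMT, TET, EZH, BCOR, STAG and RUNX families the place of the gene relative to its paralogs held in 6 of 6 libraries. In the isocitrate dehydrogenase family it did not, since IDH1 lay below IDH2 in 5 libraries and above it in S34F replicate 3. IDH1 also lay above IDH3G in replicate 3 of both groups and below it in the other libraries. In replicate 3 IDH1 and IDH3G had 28.9 and 7.80 FPKM in S34F and 14.5 and 9.89 FPKM in WT.

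**Figure D4:**
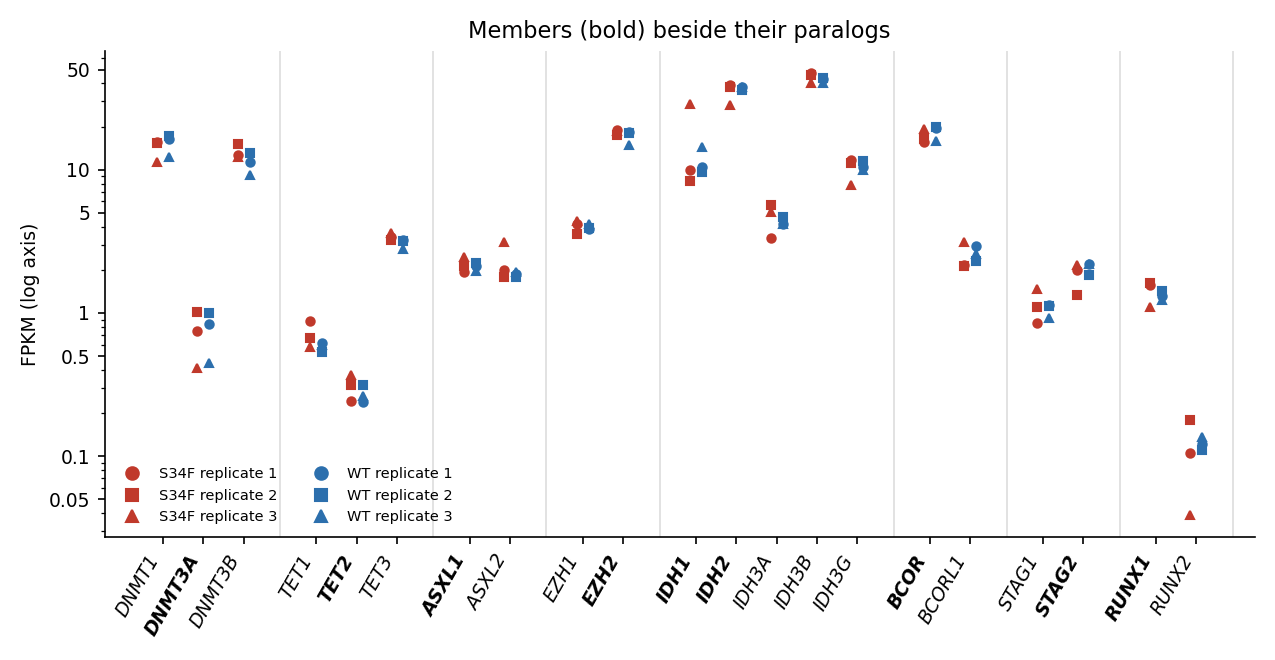
FPKM of the 10 genes except PHF6 (bold) and of their paralogs with a mean of at least 0.1 FPKM in each library, on a log axis, with S34F in red, WT in blue and replicates 1, 2 and 3 as circles, squares and triangles. DNMT3A and TET2 lie below their paralogs in all 6 libraries, while EZH2, BCOR, STAG2 and RUNX1 lie above theirs.

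As shares of a family's summed FPKM, the groups overlapped for all 9 genes of the 10 that have a listed paralog. EZH2 made up 82.1 ± 1.09% (SD, n = 3) of EZH1 and EZH2 in S34F and 80.9 ± 2.54% (SD, n = 3) in WT (exact permutation p = 0.7, two-sided). STAG2 made up 61.5 ± 7.93% (SD, n = 3) of STAG1 and STAG2 in S34F and 66.2 ± 4.17% (SD, n = 3) in WT (exact permutation p = 0.4, two-sided). For DNMT3A the shares were 2.49 ± 0.733% (SD, n = 3) and 2.72 ± 0.595% (SD, n = 3), with an exact permutation p of 0.6. Of 23 shares examined, the groups did not overlap for 2, both of them paralogs of DNMT3A. For the levels of all genes tested, the groups did not overlap in 7.38%. The 2 shares are not separate observations, since DNMT3A made up only 1.73% to 3.19% of that family's sum. This count was not tested. DNMT3B made up 43.4% to 51.1% in S34F and 39.6% to 41.8% in WT, and DNMT1, whose share falls where that of DNMT3B rises, 47.2% to 54.1% and 55.1% to 57.5% (exact permutation p = 0.1 each, the smallest possible).

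Beyond the families, 9 lists of genes that work with the 10, or that are mutated beside them in myeloid neoplasms, held 92 genes of the table, of which 80 were tested. At an unadjusted p under 0.05, 2 of the 80 were called, or 2.5%, close to the 2.39% of all genes, and 0 of 80 passed the study's limits. On the log2 scale 55 of the 80 were higher in S34F and 25 lower, with a median of 0.03, whereas 54.6% of all genes tested were higher. The groups did not overlap for 7 of the 80, or 8.75%, against 7.38% of all genes tested.

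MTF2, a Polycomb-like accessory subunit that guides PRC2 to CpG islands, had 2.98, 2.81 and 3.56 FPKM in S34F and 2.26, 2.12 and 1.99 FPKM in WT. All S34F libraries were above all WT libraries. The log2 difference was 0.40 (standard error 0.11, unadjusted p = 0.0101, adjusted p = 1.00 from limma), and the unadjusted p stayed at or below 0.0355 under all 14 alternatives run for it. These alternatives were not planned for MTF2 and reuse the same libraries, so they are no independent evidence. With both replicate 3 libraries left out, 16.9% of all genes tested had an unadjusted p under 0.05 (limma). Of 9 tested PRC2 genes other than EZH2, 8 were higher and 1 lower in S34F, against 54.6% of all genes tested that were higher. Of the 8, EED, JARID2, PHF1 and RBBP7 were higher in S34F in replicate 3 only. The median of the list was 0.04, and MTF2 was its only gene at an unadjusted p under 0.05 (limma). The core subunits EED and SUZ12 had log2 differences of 0.03 and 0.04. The largest fall in the list was that of PHF19, another Polycomb-like protein, at -0.07 (unadjusted p = 0.791 from limma).

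MAU2, which together with NIPBL loads cohesin onto DNA, had 3.57, 3.36 and 4.17 FPKM in S34F and 5.52, 5.47 and 4.21 FPKM in WT. The groups did not overlap, although S34F replicate 3 and WT replicate 3 were close to each other. The log2 difference was -0.36 (standard error 0.13, unadjusted p = 0.0304, adjusted p = 1.00 from limma). In the fit blocked by replicate number the unadjusted p was 0.0549 from limma, and 4.05% of all genes tested had one under 0.05. Leaving out S34F replicate 1, S34F replicate 2, WT replicate 1 or WT replicate 2 gave an unadjusted p of 0.0817, 0.0992, 0.107 and 0.105 from limma. Without S34F replicate 3, without WT replicate 3 and without both, the difference was -0.44, -0.47 and -0.54 (unadjusted p = 0.0162, 0.00918 and 0.000942 from limma). In the last of these fits 16.9% of all genes tested had an unadjusted p under 0.05. Of 11 cohesin partners tested, 1, MAU2, was called at an unadjusted p under 0.05, and it fell. Of the 11, 9 were higher in S34F and 2 lower, against 54.6% of all genes tested that were higher. Among the 9, STAG1, NIPBL, WAPL, PDS5A and CTCF were higher in S34F in replicate 3 only. NIPBL had a log2 difference of 0.04 (unadjusted p = 0.733 from limma). The ring subunits SMC1A, SMC3 and RAD21 had log2 differences of 0.06, 0.02 and 0.17, the last being the largest rise in the list (unadjusted p = 0.193 from limma).

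**Figure D5:**
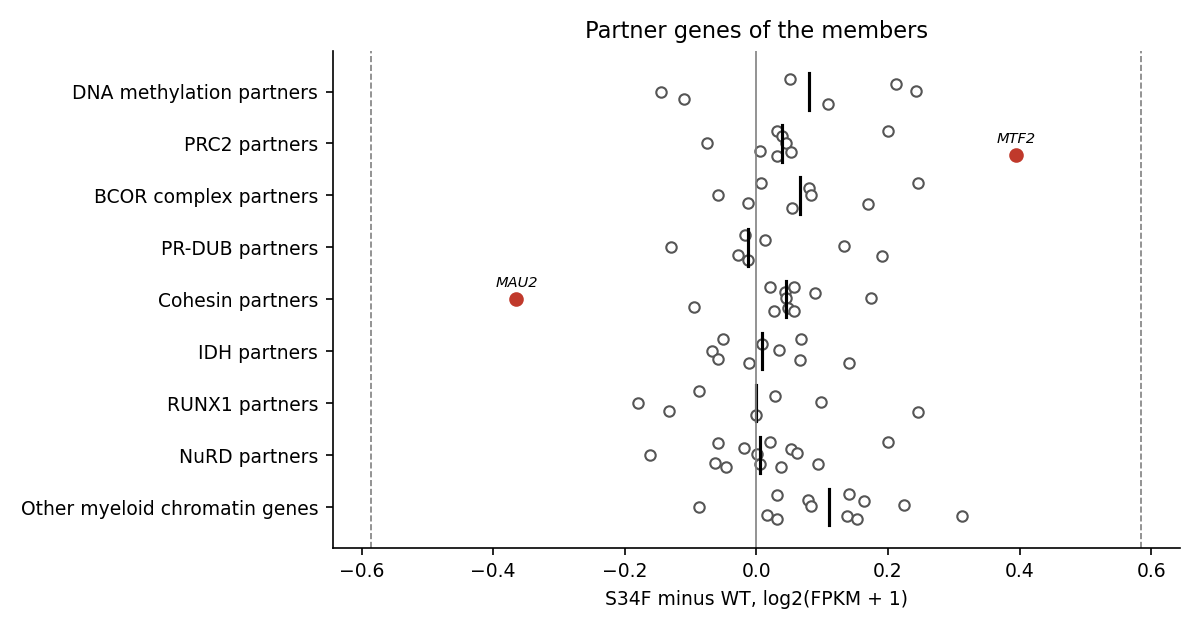
Difference between S34F and WT in log2(FPKM + 1) for the tested genes of the 9 partner lists, with 1 open circle per gene. Black bars mark the list medians and dashed lines a 1.5-fold change in FPKM + 1. Filled red circles have an unadjusted p under 0.05 from limma. MTF2 and MAU2 are the filled circles, and no gene reaches a dashed line. RBBP4 and RBBP7 stand in both the PRC2 and the NuRD lists.

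In the other 7 lists, 0 genes passed an unadjusted p under 0.05 (limma). Among 6 tested DNA methylation genes, DNMT3B had the largest rise, 0.24, and UHRF1, the adaptor of DNMT1, the largest fall, -0.15 (unadjusted p = 0.163 and 0.532 from limma). Among 8 PRC1.1 partners of BCOR, USP7 had 0.25 and BCORL1 -0.06 (unadjusted p = 0.204 and 0.707 from limma). Among 7 tested partners of ASXL1 and BAP1, ASXL2 had 0.19 and MBD6 -0.13 (unadjusted p = 0.274 and 0.568 from limma). Of 9 isocitrate dehydrogenase and citric acid cycle genes, CS, the citrate synthase, had 0.14 and IDH3G -0.07 (unadjusted p = 0.462 and 0.691 from limma). Higher and lower genes in S34F numbered 4 and 2 for DNA methylation, 6 and 2 for PRC1.1, 3 and 4 for ASXL1 partners and 5 and 4 for the citric acid cycle.

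Of 7 tested RUNX1 partners, CBFB, which stabilizes RUNX1 on DNA, had 7.93, 7.57 and 8.72 FPKM in S34F and 6.92, 7.02 and 6.01 FPKM in WT. The groups did not overlap, and the log2 difference was 0.25 (standard error 0.11, unadjusted p = 0.0612 from limma). LDB1, which bridges TAL1 and LMO2 complexes, had the largest fall in that list, -0.18 (unadjusted p = 0.427 from limma). Among 13 genes of the NuRD remodelling complex, with which PHF6 associates, RBBP7 had the largest rise, 0.20, and the deacetylase HDAC1 the largest fall, -0.16 (unadjusted p = 0.493 and 0.146 from limma). HDAC1 had 40.2 to 43.6 FPKM in S34F and 43.7 to 49.1 FPKM in WT, so that its groups did not overlap. Of 12 tested further chromatin and transcription factor genes, 11 were higher in S34F, with a median of 0.11, against 54.6% of all genes tested. Of the 11, KMT2A, KMT2D and KDM6A were higher in S34F in replicate 3 only. SETD2, which methylates histone H3 in transcribed gene bodies, led the 11 with 3.17, 3.18 and 4.67 FPKM in S34F and 2.81, 2.78 and 2.57 FPKM in WT. Its groups did not overlap (log2 difference 0.31, standard error 0.15, unadjusted p = 0.0709 from limma). The tumor suppressor gene WT1 was the 1 lower gene, at -0.09 (unadjusted p = 0.742 from limma).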

How the data were processed

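RNA-seq of 6 libraries was deposited by the authors as 1 table of FPKM per gene and library. Although it is named as a matrix of raw counts, 99.99% of its non-zero values are fractional (tolerance 1e-06), so no count test was run. StringTie and edgeR are named, without versions, in the submitters' processing notes. The aligner, genome build and annotation are not given in the sources used here. The authors' own fold changes and p-values in the table were not used.

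S34F was compared with WT by limma 3.58.1 (R 4.3.3) on log2(FPKM + 1), with a mean-variance trend and Benjamini-Hochberg adjustment, over the 10942 genes that averaged 1 FPKM or more. Single values were tested by exact two-sided permutation over libraries. The script was tested on simulated data. Gene positions came from GENCODE 29 on GRCh38 by Ensembl identifier (31002 of 31142 matched). Depth was estimated from single-exon genes, whose FPKM times length cluster at the value of 1 fragment, and covers counting error only.

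The genes, partner lists and tests were chosen with earlier results of these data known. All 10 members were named, and from each partner list the largest rise, the largest fall and every gene with an unadjusted p under 0.05. CUX1, RNF2, TDG and the genes likened to IDH1 were named after their values were seen, as were list genes given for their role. DNMT3L, on the DNA methylation list, was not analysed here. Same-numbered replicates deviated together from their group means, with correlations across genes of 0.212, 0.174 and 0.38 for numbers 1, 2 and 3. Numbers 1 and 2 were not separated from each other (0.197 for S34F 2 with WT 1 and 0.134 for S34F 1 with WT 2), while replicate 3 correlated negatively with both. Every same-number correlation was over 0.1, but so were those of number 1 with number 2, so this limit cannot show pairing of these numbers. Differences within replicate numbers are therefore descriptive, and a replicate block was fitted only as an alternative. Python 3.11.15, numpy 2.4.6, pandas 2.3.3 and matplotlib 3.10.9 were also used. Protein and promoter sequences are not shown, as no measurement here bears on them.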

Additional observations from a re-analysis of the deposited data

How the results depend on the processing

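The alternatives were another pseudocount, other filters, 3 scalings, no variance trend, the replicate block, each library left out in turn and both replicate 3 libraries left out. Among the genes each fit tested (8 in most, 10 without the filter, 4 with a mean of at least 5 FPKM), 0 passed the study's limits or an adjusted p under 0.05. With both replicate 3 libraries left out, 1 gene, BCOR, had an unadjusted p under 0.05 (log2 difference -0.28), and the groups did not overlap for 4 of the 10, against 48.6% of genes. With single libraries left out, that number ran from 0 to 2, being 1 without S34F replicate 2 or WT replicate 3, 2 without S34F replicate 3 or WT replicate 2, and 0 without either replicate 1, against 13.1% to 31.8% of genes. With a filter at a mean of 5 FPKM, 2 genes were higher in S34F instead of 5, as only IDH1, IDH2, EZH2 and BCOR remained. Under the replicate block no call on the 8 genes tested changed (in this balanced design the block leaves each log2 difference as it is, with a median of 0.04). Over all genes the block moved the number with an unadjusted p under 0.05 from 262 to 443, and leaving out both replicate 3 libraries moved it to 1846. The direction changed for ASXL1, to -0.0376 without S34F replicate 3, -0.0035 without WT replicate 3 and -0.0697 without both, for IDH1, to -0.29 without S34F replicate 3 and -0.12 without both replicate 3 libraries, for IDH2, to 0.047 and 0.057 in the same fits, and for STAG2, to 0.0058 without S34F replicate 2. With single libraries left out these 4 genes ranged from -0.0376 to 0.0848 (ASXL1), -0.29 to 0.55 (IDH1), -0.17 to 0.047 (IDH2) and -0.218 to 0.0058 (STAG2). DNMT3A, not tested in these fits, went from -0.03 to 0.1003 without S34F replicate 3, 0.065 when WT replicate 2 was left out, 0.00037 without WT replicate 1, and -0.078 with the pseudocount of 0.1. None of the values for the 4 genes had an unadjusted p under 0.05. For TET2 the pseudocount of 0.1 gave 0.13. Counting error was largest for TET2 and DNMT3A, and changes smaller than the intervals given were not detectable. For DNMT3A the coefficient of variation within groups, 41.3% in S34F and 37.3% in WT, exceeded the counting error of up to 10.1%.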

Other observations

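TDG, the glycosylase that excises oxidized 5-methylcytosine downstream of the TET enzymes, was highest in replicate 2 of both groups. It had 4.43, 10.1 and 4.79 FPKM in S34F replicates 1, 2 and 3 and 3.92, 9.04 and 3.55 FPKM in WT replicates 1, 2 and 3. Within each replicate number S34F was the higher, and the log2 difference was 0.21 (unadjusted p = 0.601 from limma). Both replicate 2 libraries were more than 1.5 times above each of the other 4, which held for 8 of the 10942 genes tested, or 0.0731%. That rule follows the pattern already seen in TDG, so the share does not measure how unusual TDG is. TDG has processed pseudogenes, and how shared reads were assigned is not given in the sources used here.

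The genes whose profile over the 6 libraries was closest to that of IDH1 were AL158801, OSER1, SPTAN1, RF02158 and WASHC2A. OSER1 had 11.2, 9.85 and 26.8 FPKM in S34F and 12.2, 11.2 and 16.6 FPKM in WT, with the same high replicate 3 in both groups. Its centred profile differed from that of IDH1 by an average of 0.083 on the log2 scale per library, with a Pearson correlation of 0.996 as a description over 6 libraries of the same set.

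Among the partner genes, the groups also did not overlap for RNF2, the E3 ligase shared by PRC1 complexes, at 4.10, 4.49 and 4.84 FPKM in S34F and 3.80, 3.81 and 3.98 FPKM in WT (log2 difference 0.17, unadjusted p = 0.14 from limma). For CUX1, a homeobox gene mutated in myeloid neoplasms, the S34F libraries lay between 2.45 and 2.59 FPKM and the WT libraries between 2.21 and 2.44 FPKM (log2 difference 0.08, unadjusted p = 0.406 from limma).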
